A study of Homo sapiens with 6 samples.

Results

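DUSP4, DUSP5, DUSP6, SPRY2, SPRY4, SPRED1, SPRED2, PHLDA1, ETV4 and ETV5 are transcribed in response to the kinase ERK, and most of them encode inhibitors of the cascade that activates it. The 10 genes were chosen by symbol, with earlier results of these data known. Each was found once among the 25349 genes of the count table. They were measured in SCC-9, an established line of human tongue squamous cell carcinoma, after transfection with 10 nM of siRNA that targets MKI67, which encodes Ki67, in its exon 7 (siE7, 3 libraries titled siKi) or of a nonspecific siRNA (siNC, 3 libraries titled NS). Both groups were grown with 10% FBS and 400 ng/mL hydrocortisone, a glucocorticoid, and were transfected by lipofection on days 0 and 2, with RNA taken on day 4. Of the exon 7 siRNAs listed in the methods, the one given to these cells is not stated. SCC-9 is a single line, and nothing in the labels says whether the 3 libraries of a group came from separate cultures, so p-values measure the spread between these libraries, which may be technical.

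ERK is the last kinase of a relay that runs from growth factor receptors through RAS, RAF and MEK. Active ERK enters the nucleus and switches on genes, and some of their products close a negative loop: DUSP phosphatases remove the activating phosphates from ERK, and Sprouty (SPRY) and SPRED proteins act further up, between the receptor and RAF. ETV4 and ETV5 are transcription factors of the PEA3 group of the ETS family. In squamous epithelium this pathway is driven largely by EGFR, and mRNAs of these feedback genes are widely used as readouts of ERK output. The mRNA level of such a gene is not a measure of ERK phosphorylation, which was not analysed here.

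The libraries held 25608192 to 29550264 counts on genes. Along the second principal component, with 17.8% of the variance against 63.6% for the first, siE7 replicate 1 stood apart from siE7 replicates 2 and 3. Calls of the 10 genes and counts of the ERK pathway lists below are therefore also given without it. Levels are CPM, that is counts relative to library size, with library sizes scaled by the TMM method, which corrects for differences in RNA composition. MKI67 itself had 1029 to 1077 CPM in the siNC libraries and 108 to 124 CPM in the siE7 libraries, and fell by 3.21 ± 0.114 on the log2 scale (± standard error, as for all fold changes below; edgeR, adjusted p = 6.7e-08). All 10 squamous markers checked, such as KRT5, KRT14 and TP63, were measured, with a summed level of 23573 to 25091 CPM with siNC and 21530 to 28073 CPM with siE7. By the test used below 4 of them were lower and 1 higher, where 16.0% of all genes tested were lower and 18.0% higher. The 4 endothelial markers checked were below 1 CPM in every library (summed level 0.284 to 0.492 CPM with siNC and 0.0725 to 0.304 with siE7). The 6 fibroblast markers summed to 16.5 to 19.6 CPM with siNC and 18.2 to 24.2 with siE7, nearly all of it COL1A1 and COL1A2, with DCN, LUM, PDGFRB and COL3A1 below 1 CPM. Of the 6 leukocyte markers CD14 and CD68 were in the table, with 2.31 to 3.60 CPM in sum with siNC and 1.34 to 3.10 with siE7. The genes of these 3 lists with enough counts to be tested, COL1A1, COL1A2 and CD14, did not pass. Mitochondrial genes took 2.22% to 2.44% of counts with siNC and 2.44% to 2.75% with siE7. The part of any of these values in the results below was not tested.

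The question here was whether ERK feedback and output genes differed between siE7 and siNC. All 10 genes had a log2 fold change below 0, as did 44.4% of the 14661 genes tested, and for each of them the 3 siE7 libraries lay below the 3 siNC libraries. Such a separation was seen for 22.7% of genes tested. The test was the quasi-likelihood test of edgeR, with p-values adjusted over all genes tested (Benjamini-Hochberg), and a gene is said to have fallen or risen where the adjusted p was under 0.05. By this test 9 of the 10 genes fell and none rose, against 16.0% of all genes tested that fell and 18.0% that rose (34.0% in all). Of the 10, 6 genes, DUSP4, DUSP6, SPRY4, PHLDA1, ETV4 and ETV5, also had a log2 fold change beyond -1, and these were differentially expressed genes (DEGs) in the sense of the study, against 4.84% of all genes tested. DUSP5 was the gene that did not pass. The median log2 fold change of the 10 genes was -1.12, from -2.02 for SPRY4 to -0.45 for DUSP5, while that of all genes tested was 0.08. Among the 9613 genes tested whose mean level lay within the range of the 10, 18.0% fell, 4.70% were DEGs with siE7 lower and 25.2% had all siE7 libraries below all siNC libraries. All 10 genes passed the filter on low counts, and also a stricter one of at least 10 counts in every library. In bulk RNA, fewer cells that express a gene and less of its RNA in each cell cannot be told apart.

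**Figure D1:**
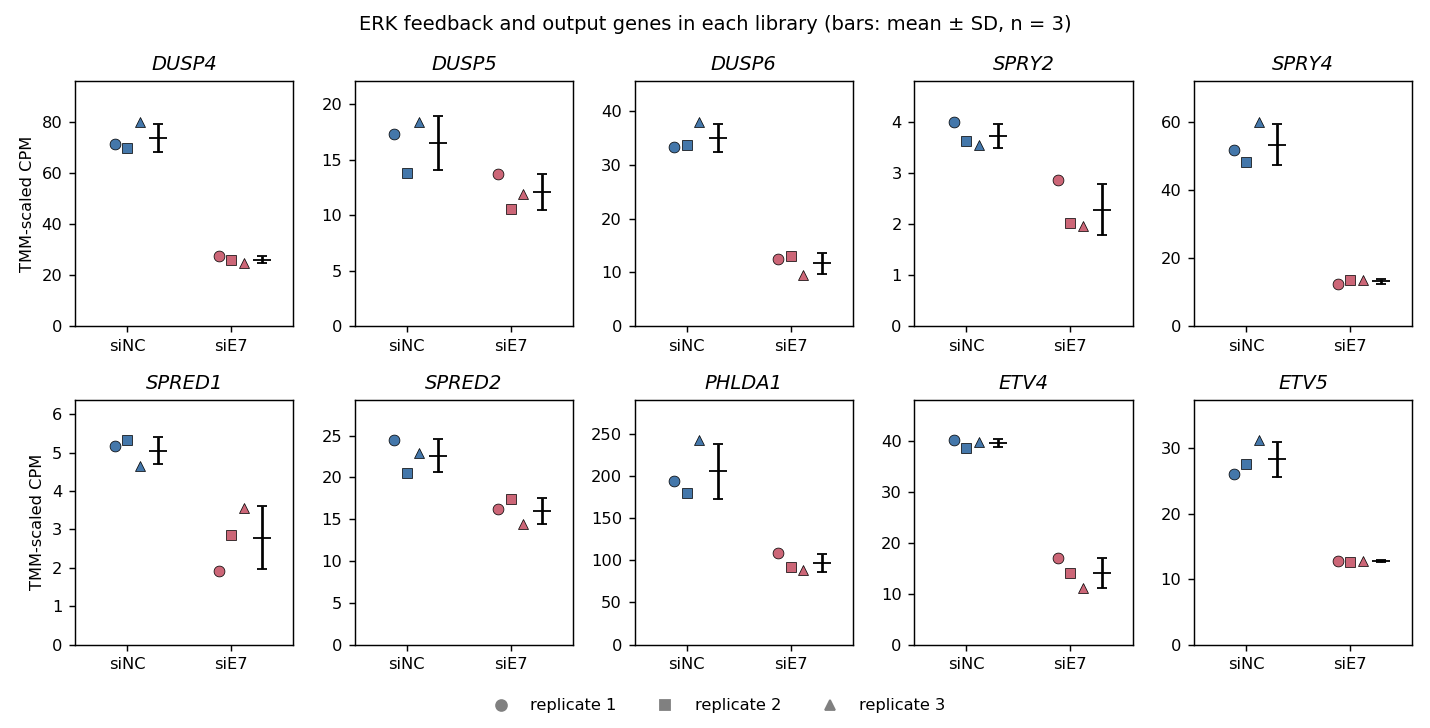
TMM-scaled CPM (y axis, from 0) of each of the 10 genes in the 3 siNC and 3 siE7 libraries (x axis), with 1 symbol per replicate number and black bars for the mean ± SD (n = 3). The siE7 libraries lie below the siNC libraries in every panel, with the narrowest gap for DUSP5.

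DUSP4, DUSP5 and DUSP6 encode dual-specificity phosphatases that act on ERK. DUSP6 (ENSG00000139318.8), a phosphatase of the cytoplasm selective for ERK, is at 89347235 to 89352501 of chromosome 12 (GRCh38, minus strand). The level of DUSP6 was 33.3, 33.7 and 38.0 CPM in siNC replicates 1, 2 and 3 and 12.6, 13.0 and 9.45 CPM in siE7 replicates 1, 2 and 3. The groups were far apart, and siE7 replicate 3 was the lowest library. It fell by 1.58 ± 0.156 (edgeR, adjusted p = 3.3e-05), which leaves 33.4% of the siNC level. Its RefSeq promoter window of 300 bases, from 250 before to 50 after the start, is printed because it is the one window among those of the 10 genes that held a searched motif. It is chr12:89352452-89352751 of GRCh38.p14, read on the minus strand, 5′ to 3′. Capitals mark both copies of the octamer TCAATGGA, here on the opposite strand as TCCATTGA.
DUSP6 promoter: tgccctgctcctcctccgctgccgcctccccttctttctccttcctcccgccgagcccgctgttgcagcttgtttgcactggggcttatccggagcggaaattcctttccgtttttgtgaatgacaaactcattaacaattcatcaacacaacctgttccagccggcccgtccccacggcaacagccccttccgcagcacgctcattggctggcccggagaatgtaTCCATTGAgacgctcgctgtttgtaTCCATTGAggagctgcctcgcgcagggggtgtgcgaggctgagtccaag
The copies lie at bases -24 to -17 and 2 to 9 relative to the first base of the gene, on chromosome 12 at 89352518 to 89352525 and at 89352493 to 89352500. The octamer is one of 4 (TGAATGAA, TGAATGGA, TCAATGAA and TCAATGGA) bound by CIC, a repressor that ERK signaling relieves from its targets. No searched motif contains another. Searched on both strands, TCAATGGA was found in 0.491% of 27305 promoter windows and in 0.351% of the windows of genes tested. Any of the 4 octamers was found in 3.86% and 2.47% of these, and at least 2 octamers in 0.333% of all windows. RefSeq windows were matched for 6 of the 10 genes, DUSP6, SPRY2, SPRY4, SPRED1, SPRED2 and PHLDA1. None of the 6 held CCGGAAG (an ETS motif, in 10.7% of all windows and 19.6% of the 10529 windows of genes tested), TGANTCA (AP-1, 7.76% and 4.74%) or TGACGTCA (CRE, 1.98% and 3.29%), and no other of them held a CIC octamer. This says only that these letters are not in these windows. The mRNA of CIC had a log2 fold change of -0.08 (95% interval -0.36 to 0.21) and did not pass the test.

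DUSP4 (ENSG00000120875.9), an ERK phosphatase of the nucleus, had 71.3, 69.7 and 80.1 CPM in the siNC libraries and 27.4, 25.8 and 24.6 CPM in the siE7 libraries. The libraries of each group lay close together, and DUSP4 fell by 1.51 ± 0.119 (edgeR, adjusted p = 7.4e-06). DUSP5 (ENSG00000138166.6, chromosome 10, 110497907 to 110511533, plus strand) is the other ERK phosphatase of the nucleus among the 10. It had 17.3, 13.8 and 18.4 CPM with siNC and 13.7, 10.5 and 11.9 CPM with siE7. The highest siE7 library, replicate 1, reached almost the level of siNC replicate 2, and the order of these libraries turned with upper-quartile scaling or with library totals. The log2 fold change of DUSP5 was -0.45 (95% interval -0.82 to -0.08, adjusted p = 0.059, edgeR). Its adjusted p lay between 5.6e-05 and 0.22 over 14 alternative fits and was under 0.05 in 4 of them, among them the fit without siE7 replicate 1 (-0.61) and DESeq2 (-0.50).

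The phosphatases were also compared within each library, as the log2 ratio of their counts, which does not depend on how libraries are scaled. The ratio of DUSP4 to DUSP5 was 2.17 ± 0.153 (SD, n = 3) with siNC and 1.11 ± 0.158 (SD, n = 3) with siE7. That of DUSP6 to DUSP5 was 1.09 ± 0.180 with siNC and -0.05 ± 0.329 with siE7. In both ratios every siE7 library lay below every siNC library. The ratio of DUSP6 to DUSP4 was -1.07 ± 0.0269 with siNC and -1.17 ± 0.200 with siE7, and here the groups overlapped. In the exact two-sided permutation test over libraries p was 0.10, 0.10 and 0.70, where 0.10 is the smallest that 3 against 3 allow. Over the 6 ratios computed, adjusted p was 0.20, 0.20 and 0.70. The 6 pairs were chosen after the values were seen, and none could have reached 0.05. The p-values of ratios here and below are therefore a description.

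**Figure D2:**
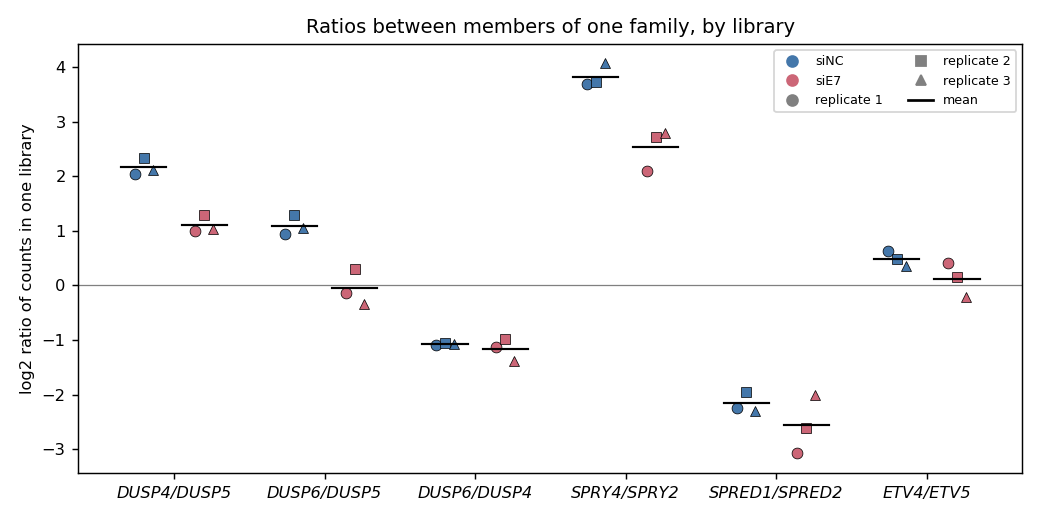
The log2 ratio of the counts of a pair of genes of one family in the same library (y axis) for 6 pairs (x axis), in blue for siNC and red for siE7, with 1 symbol per replicate number and a line at the mean of 3. The groups are apart for DUSP4/DUSP5, DUSP6/DUSP5 and SPRY4/SPRY2, and overlap for DUSP6/DUSP4, SPRED1/SPRED2 and ETV4/ETV5.

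Sprouty proteins are induced by growth factors and blunt the signal from receptor tyrosine kinases to RAS and RAF. SPRY4 (ENSG00000187678.10, chromosome 5, 142310427 to 142326455, minus strand) had 51.6, 48.2 and 59.9 CPM in the siNC libraries and 12.3, 13.4 and 13.6 CPM in the siE7 libraries. This was the largest decrease of the 10 genes, with all siE7 libraries within a narrow band. SPRY4 fell by 2.02 ± 0.134 (edgeR, adjusted p = 2.6e-06), to 24.6% of the siNC level. SPRY2 (ENSG00000136158.12, chromosome 13, 80335976 to 80341126, minus strand) was expressed far lower, with 4.01, 3.64 and 3.56 CPM with siNC and 2.87, 2.03 and 1.96 CPM with siE7. These levels rest on 56 to 99 counts per library. SPRY2 fell by 0.71 (95% interval -1.21 to -0.20, adjusted p = 0.034, edgeR). This call was kept without siE7 replicate 1 (-0.96) and lost when any 1 of the other 5 libraries was left out, with adjusted p up to 0.12 (edgeR) and log2 fold changes of -0.75 to -0.61. The log2 ratio of SPRY4 to SPRY2 went from 3.83 ± 0.213 with siNC to 2.54 ± 0.380 with siE7 (SD, n = 3), with no overlap (exact two-sided permutation test, p = 0.10, adjusted p = 0.20 over the 6 ratios).

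SPRED proteins are relatives of Sprouty that bring the RAS inhibitor neurofibromin to the membrane. SPRED1 (ENSG00000166068.13, chromosome 15, 38252836 to 38357249, plus strand) had 5.18, 5.32 and 4.66 CPM with siNC and 1.92, 2.86 and 3.57 CPM with siE7. The siE7 libraries of SPRED1 were the most scattered of the 10 genes, with a coefficient of variation of 29.6%, and replicate 1 was the lowest. SPRED1 fell by 0.86 ± 0.242 (edgeR, adjusted p = 0.018), but its call was lost without siNC replicate 1 (-0.85) or siNC replicate 2 (-0.83), and without siE7 replicate 3 its log2 fold change was -1.08. SPRED2 (ENSG00000198369.10, chromosome 2, 65310851 to 65432637, minus strand) had 24.4, 20.5 and 22.9 CPM with siNC and 16.2, 17.4 and 14.4 CPM with siE7. It fell by 0.50 ± 0.143 (edgeR, adjusted p = 0.019), the smallest decrease that passed. This call was lost without siNC replicate 1 (-0.45), siNC replicate 3 (-0.50) or siE7 replicate 3 (-0.43), at adjusted p of 0.078 to 0.099 (edgeR). The SPRED1 to SPRED2 ratio did not separate the groups, at -2.16 ± 0.186 with siNC and -2.56 ± 0.535 with siE7 (exact two-sided permutation test, p = 0.30).

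The transcription factors ETV4 and ETV5 were both DEGs. ETV4 (ENSG00000175832.13, chromosome 17, 43527844 to 43579620, minus strand) had 40.1, 38.6 and 39.9 CPM with siNC, the tightest siNC group of the 10, and 17.0, 14.0 and 11.1 CPM with siE7. It fell by 1.49 ± 0.160 (edgeR, adjusted p = 5.8e-05). ETV5 (ENSG00000244405.8, chromosome 3, 186046314 to 186110318, minus strand) had 26.0, 27.6 and 31.2 CPM with siNC and 12.8, 12.6 and 12.8 CPM with siE7. Its siE7 libraries, with 349 to 392 counts each, had a coefficient of variation of 0.702%. This is below the spread expected from counting noise alone, as is that of ETV4 with siNC (2.04%). Such closeness of 3 libraries is therefore no measure of precision. ETV5 fell by 1.15 ± 0.136 (edgeR, adjusted p = 1.1e-04). The log2 ratio of ETV4 to ETV5 was 0.49 ± 0.137 with siNC and 0.12 ± 0.310 with siE7, with overlap between the groups (exact two-sided permutation test, p = 0.20). PHLDA1 (ENSG00000139289.14, chromosome 12, 76025447 to 76031776, minus strand), which encodes a pleckstrin homology-like protein, had 194, 180 and 242 CPM with siNC and 109, 92.6 and 88.3 CPM with siE7. Its siNC replicate 3 was well above the others. PHLDA1 fell by 1.09 ± 0.139 (edgeR, adjusted p = 1.9e-04), and without siNC replicate 3 its log2 fold change was -0.96, still past the test but no longer that of a DEG.

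**Figure D3:**
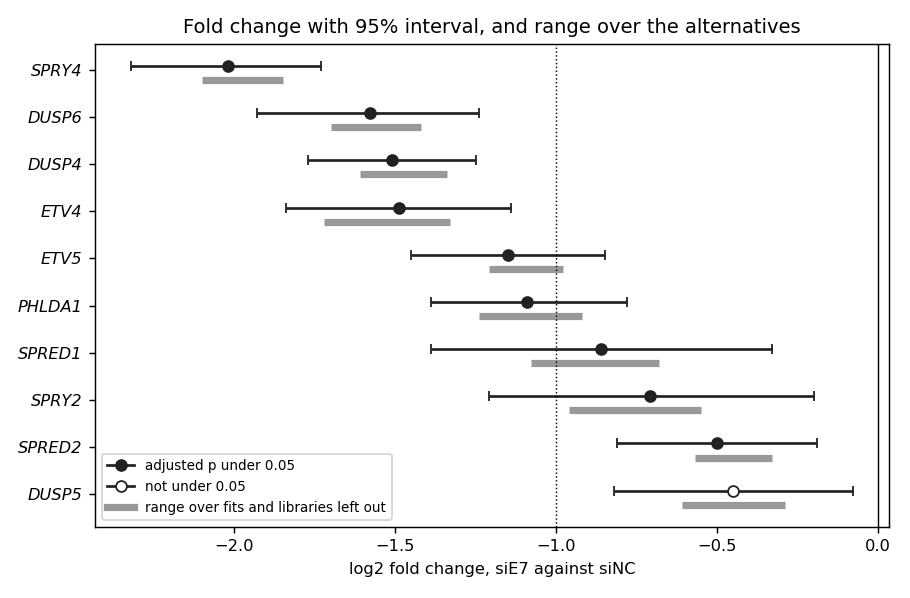
Log2 fold change of siE7 against siNC (x axis) for each of the 10 genes (y axis), with its 95% interval (black) and, in grey, the lowest to highest value over the reported fit and 14 alternatives. The dotted line marks -1, and the open point, DUSP5 at -0.45, is the gene whose adjusted p was not under 0.05.

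Without composition scaling, that is with library totals alone, the median of all genes tested shifted up by 0.169 on the log2 scale. In that setting the 10 genes kept a log2 fold change below 0, at -1.85 (SPRY4) to -0.29 (DUSP5) with a median of -0.95. Of them 6 passed the test against 11.1% of all genes that fell, and 4 were DEGs, since ETV5 (-0.98) and PHLDA1 (-0.92) no longer reached -1. Without siE7 replicate 1 all 10 genes passed, at a background of 29.5% of genes that fell. DUSP4, DUSP6, SPRY4, PHLDA1, ETV4 and ETV5 passed the test in each of the 14 alternative fits.

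Together the 10 genes had 467, 441 and 541 CPM in siNC replicates 1, 2 and 3 and 226, 204 and 192 CPM in siE7 replicates 1, 2 and 3. The largest part of each sum was PHLDA1, with 194, 180 and 242 CPM in the siNC libraries and 109, 92.6 and 88.3 CPM in the siE7 libraries. To compare levels between genes, CPM was divided by the length of all annotated exons of the gene in kilobases. Places of close genes depend on this choice of length. The canonical transcript of ETV4 has 2335 bases against 3515 in all its exons, and that of DUSP5 2477 against 2535. With siNC, PHLDA1 was the highest at 34.7 ± 5.55 CPM per kb (SD, n = 3). ETV4 (11.3 ± 0.229), DUSP4 (10.1 ± 0.770), DUSP6 (9.07 ± 0.679) and SPRY4 (8.12 ± 0.922) followed, and neighbours in this order overlapped. DUSP5 (6.51 ± 0.954), ETV5 (4.89 ± 0.460), SPRED2 (4.11 ± 0.356), SPRY2 (1.16 ± 0.0746) and SPRED1 (0.652 ± 0.0454) came after, each apart from the next. With siE7 the order on this scale changed. DUSP5 stood at place 2 instead of 6, with 4.76 ± 0.630 CPM per kb, although its libraries overlapped those of ETV4 (3.99 ± 0.832). SPRY4 moved from place 5 to 8, at 2.00 ± 0.105. PHLDA1 was still the highest (16.3 ± 1.84), and SPRY2 (0.712 ± 0.157) and SPRED1 (0.359 ± 0.106) were still the lowest.

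The genes lie on 9 chromosomes, and only DUSP6 and PHLDA1 share one. In the GENCODE annotation their canonical transcripts had a median of 4 exons, against 9 for the tested protein-coding genes, and the median gene span was 16.8 kb against 33.3 kb. The library kit kept the strand, but it is not stated whether counting used it, so overlaps matter. ETV4 shares 68 exonic bases (1.93% of its exons) with DHX8 on the other strand, which had 145 ± 5.88 CPM with siNC and 120 ± 20.4 with siE7 and did not pass the test. ETV5 shares 164 exonic bases (2.84%) with DGKG on the same strand, so counting by strand would not separate them. DGKG had 0.650 ± 0.384 CPM with siNC and 1.01 ± 0.512 with siE7. An antisense noncoding gene, ENSG00000274021, covers 28.6% of the exons of DUSP6 and had 2 counts in 1 library and 0 in the others, and PHLDA1-AS1 covers 9.35% of those of PHLDA1 with 0 to 3 counts per library. SPRY4-AS1 overlaps the span of SPRY4 on the other strand but shares no exonic base with it. SPRY4-AS1 had 13, 26 and 24 counts with siNC and 7, 6 and 7 with siE7, a change of -1.84 ± 0.453 on the log2 scale (edgeR, adjusted p = 0.0090), and lost its call without siNC replicate 2 (adjusted p = 0.054, edgeR).

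The pattern of DUSP6 over the 6 libraries was compared with that of the 14660 other genes tested, by the Euclidean distance between mean-centred log2 CPM values. The 5 nearest genes were SBSN (0.232), WWC3 (0.241), C15orf48 (0.267), LAMP3 (0.283) and ETV4 (0.293), with Pearson's r of 0.990 to 0.997 over 6 libraries that share the same 2 groups. C15orf48 was near the floor, with a mean of 1.02 CPM with siNC and 0.331 CPM with siE7. DUSP4 was at place 9 (distance 0.306). ETV5 (220), SPRY4 (236) and PHLDA1 (274) were farther, followed by SPRY2 (1097), SPRED1 (1435), SPRED2 (1770) and DUSP5 (2369). These distances include the difference between the groups and so are a description.

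Close relatives of the 10 genes did not all move the same way. Of 13 relatives 11 were tested, 3 fell, 2 rose and 6 did not pass, with a median log2 fold change of -0.28, where 16.0% of all genes tested fell and 18.0% rose. Without siE7 replicate 1, 5 of the 11 fell and 2 rose, where 29.5% of all genes tested fell and 58.4% passed in either direction. DUSP7, of the same ERK-selective subfamily as DUSP6, had 85.8, 83.3 and 87.1 CPM with siNC and 27.1, 22.8 and 24.3 CPM with siE7. It fell by 1.79 ± 0.118 (edgeR, adjusted p = 2.5e-06). DUSP9, the third of that subfamily, had 2.79, 2.52 and 2.08 CPM with siNC and 7.39, 5.04 and 4.71 CPM with siE7 and rose by 1.21 ± 0.239 (edgeR, adjusted p = 0.0028). DUSP1, a phosphatase of the nucleus that acts also on p38 and JNK, went from 17.2, 18.4 and 18.5 CPM to 38.1, 36.5 and 40.5 CPM. DUSP1 rose by 1.09 ± 0.123 (edgeR, adjusted p = 7.8e-05). DUSP10, which acts mainly on p38 and JNK, fell by 0.58, and PHLDA2 fell by 1.24. SPRY1 (-0.28, 95% interval -0.96 to 0.40), SPRED3 (-0.75, -1.41 to -0.09) and ETV1 (-1.56, -2.89 to -0.23) did not pass, and the mean of ETV1 was 0.549 CPM in siNC and 0.186 CPM in siE7 libraries.

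Other genes known as outputs of ERK were described by the same test. Like the other lists here, the list of 18 was written with earlier results of these data known, so its counts are a description. All 18 were tested, 11 fell, 7 did not pass and none rose. Their median log2 fold change was -0.73, and 7 of the 11 were DEGs. Of all genes tested 16.0% fell and 4.84% were DEGs with siE7 lower. With library totals 10 of the 18 fell, against 11.1% of all genes tested, and 1 (UPP1) rose. Without siE7 replicate 1, 12 of the 18 fell and none rose, where 29.5% of all genes tested fell. CCND1, the gene of cyclin D1, had 487, 446 and 468 CPM with siNC and 161, 169 and 174 CPM with siE7, a log2 fold change of -1.48. LIF, a cytokine gene, fell by 1.88 ± 0.209, and PLAUR, the urokinase receptor, by 1.29 ± 0.130. FOSL1 and EGR1, chosen after their values were seen, encode a subunit of AP-1 and an immediate early transcription factor and fell by 1.26 and 1.21. FOS (-0.28), IER2 (0.04) and KLF10 (0.03), named likewise, did not pass.

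Of 19 genes of the cascade itself, from RAS to ERK with their adaptors, 2 fell and 17 did not pass, where 34.0% of all genes tested passed. The median log2 fold change of these 19 was -0.15 and turned to 0.02 with library totals. HRAS (-0.54 ± 0.128), which encodes a RAS protein, was among the genes that fell. BRAF (-0.18), which encodes a RAF kinase, and MAPK3 (-0.44), which encodes an ERK kinase, did not pass. Without siE7 replicate 1 the count went from 2 to 11, of which 8 fell and 3 rose, while the share of all genes tested that passed went from 34.0% to 58.4%. Among 13 other inhibitors of RAS and RAF signaling 12 were tested, 4 fell and 3 rose, where 16.0% of all genes tested fell and 18.0% rose. ERRFI1, an inhibitor of EGFR, had 39.0, 38.9 and 39.6 CPM with siNC and 86.7, 102 and 104 CPM with siE7 and rose by 1.32 ± 0.116 (edgeR, adjusted p = 1.4e-05). CBLB, a ubiquitin ligase for receptor kinases, rose by 1.03, while the RAS GTPase-activating genes NF1 (-0.71), RASAL2 (-0.59) and RASA1 (-0.55) fell, as did PEBP1 (-0.29). The count for this list went from 7 to 4 without siNC replicate 1 and also without siNC replicate 2, where 21.4% and 21.1% of all genes tested passed. Without siE7 replicate 1 it was 9, of which 6 fell and 3 rose, where 58.4% of all genes tested passed. Of 16 ERK effectors and repressors of ERK targets 4 fell and 1 rose, where 16.0% of all genes tested fell and 18.0% rose. The median of this list, -0.12, turned to 0.04 with library totals. MKNK1 and MKNK2, which encode kinases activated by ERK, went opposite ways, with log2 fold changes of -0.93 and 0.75, and ELK3, RPS6KA1 and RPS6KA4 fell. The repressor ERF (-0.04, 95% interval -0.34 to 0.27) did not pass. Without siE7 replicate 1 the count of this list went from 5 to 12, again at 58.4% of all genes tested.

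**Figure D4:**
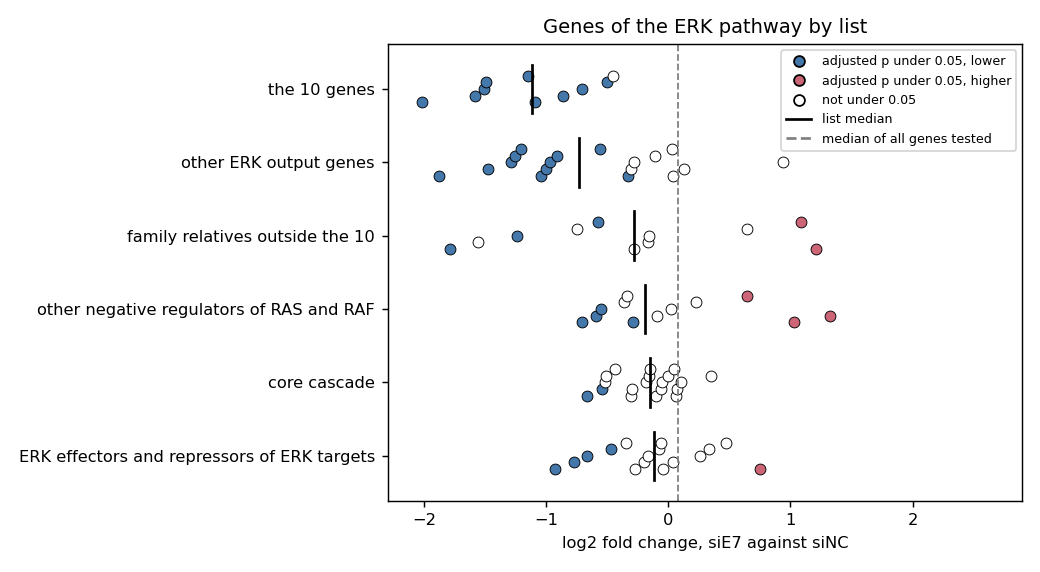
Log2 fold change of siE7 against siNC (x axis) for each tested gene of 6 lists (y axis, points spread vertically for legibility), blue where the gene fell, red where it rose and white where it did not pass, with a black line at the list median and a dashed line at the median of all genes tested (0.08). The 10 genes lie wholly below 0 (median -1.12), the other ERK outputs have a median of -0.73, and the medians of the remaining lists lie between -0.28 and -0.12, of which those of the cascade and the effectors are above 0 with library totals.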

How the data were processed

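SCC-9 mRNA was sequenced as stranded paired-end libraries, and the authors deposited raw counts of reads per gene (25349 genes, whole numbers, not normalized). The submitters' processing notes name HISAT2, DESeq2 and GRCh38. The counting tool, annotation and use of strand are not given in the sources used here. Samples were grouped by title. Genes were filtered by filterByExpr (14661 kept), scaled by TMM and tested with edgeR 4.0.16 (R 4.3.3), quasi-likelihood with robust dispersions, with Benjamini-Hochberg adjustment over all genes tested. DEGs had an adjusted p under 0.05 and a log2 fold change beyond 1, as in the study. Intervals (95%) use the fit's degrees of freedom. Tests were checked on simulated data. For distances, 0.02 CPM was added before log2. Alternatives were DESeq2 1.42.0, limma-voom (limma 3.58.1), RLE, upper-quartile and no composition scaling, other filters, a replicate block and each library left out. The ratios between relatives were chosen after the values were seen. The 10 genes and the lists were chosen with earlier results of these data known. Named genes were the 10, their overlap partners, close paralogues, the 3 smallest p-values per list, genes that make up a small count (some are not reported here) and the 5 nearest to DUSP6. Gene models are GENCODE v44 (25283 of 25349 identifiers matched without version), and promoters are RefSeq GRCh38.p14. Depth was 25608192 to 29550264 counts per library. Tables and figures used Python 3.11.15, numpy 2.4.6, pandas 2.3.3 and matplotlib 3.10.9.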

Additional observations from a re-analysis of the deposited data

How the results depend on the processing

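Over 14 alternative fits no log2 fold change of the 10 genes changed sign, and of 275 alternative values 249 stayed on the same side of the threshold or within 1.5 times the reported count. DUSP5 passed with DESeq2 (-0.50), RLE scaling (-0.50) and no filter on low counts (-0.47), and ranged from -0.61 to -0.36 with a library left out. With library totals alone SPRY2 (-0.55), SPRED1 (-0.68) and SPRED2 (-0.33) did not pass, and 76.2% of all DEGs were higher with siE7 against 60.4% with TMM. With a library left out, SPRY2 ranged from -0.96 to -0.61, SPRED1 from -1.08 to -0.71 and SPRED2 from -0.57 to -0.43. The count of all genes past the threshold, 4990, ranged from 3153 to 8765 with a library left out, highest without siE7 replicate 1. For the core cascade this count ranged from 2 to 11 (4 with DESeq2), for other inhibitors of RAS and RAF from 4 to 9, and for effectors and repressors from 4 to 12. The causes were not tested. Same-numbered libraries did not deviate together (correlations of -0.0521 to -0.0205), so the numbers were not taken to pair samples. With the replicate block 9 of the 10 genes passed, 6 were DEGs and 4947 genes passed in all. Genes near 1 CPM or below, such as ETV1, SPRY4-AS1 and C15orf48, are limited by depth.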
